A study of Mus musculus with 8 samples.

Results

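Integrins and laminins are the receptors and ligands through which cells hold on to a basement membrane, and 37 of the 24015 gene symbols in the deposited table encode them. They were taken by symbol alone, as 26 integrin subunits (18 alpha and 8 beta) and 11 laminin chains (5 alpha, 3 beta and 3 gamma). No measured value entered the symbol rule, but the genes were chosen with earlier results of these data known. Of the 37 genes, 30 were tested, having reached 10 normalized counts in 2 or more of the 8 libraries. The other 7 (Itgad, Itgae, Itgal, Itgax, Itgb7, Lama3 and Lamc3) reached at most 10 reads, or 9.11 normalized counts, in any library.

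An integrin is a pair of 1 alpha and 1 beta subunit spanning the cell membrane, and the pairing sets which matrix protein it binds. A laminin is a trimer of 1 alpha, 1 beta and 1 gamma chain, which assembles inside the cell, is secreted and polymerizes into the basement membrane next to collagen IV. Cardiac fibroblasts are known to use integrins for fibronectin and collagen, while laminins surround cardiac muscle cells, vessels and, in adult tissue, many stromal cells.

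The cells were cardiac fibroblasts from wild type C57BL/6J mice aged 8 weeks, and no other genotype or strain was compared. One group was collected before the medium (day 0), and the other groups after 7, 14 or 21 days in an osteogenic differentiation medium, with 2 libraries at each of the 4 times. Every later group had both more days in culture and the medium, so time in culture and the medium cannot be told apart. Nothing in the labels ties the 2 libraries of a time to different cultures or mice, so p-values measure the spread between these libraries, which may be technical.

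RNA was sequenced to between 13399313 and 21883498 reads assigned to genes per library. A normalized count is a gene's reads divided by 1 size factor per library, and 1 read was worth 0.796 to 1.31 normalized counts. The fibroblast markers Pdgfra and Col1a1 were present at every time. Pdgfra averaged 4276, 9506, 4640 and 9910 normalized counts at days 0, 7, 14 and 21, and Col1a1 249900, 68600, 22420 and 54050. A list of 12 fibroblast genes summed to 727100 to 732300 at day 0 and 516400 to 545100 at day 7. At day 14 its sum was 343800 to 393200, and at day 21 it was 507200 to 587200. From day 7 to day 14, 4 of the 12 rose and 5 fell, beside 25% and 27% of all genes tested. A list of 21 macrophage genes summed to between 1310 and 1373 normalized counts at day 0 and 10440 to 12800 at day 7. Its sum was 21770 to 40920 at day 14 and 21510 to 21950 at day 21. Of the 21, 19 were higher at day 7 than at day 0, as were 27.5% of all genes tested. The 15 lymphocyte genes summed to at most 9.15 in any library, with Cd3e at 0 reads throughout. In bulk RNA of this kind, fewer cells of a type and less RNA per cell cannot be told apart.

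The laminin and integrin genes did not move as 1 block. Between day 0 and day 7, 9 of the 30 tested genes rose and 11 fell, with a median log2 change of -0.24 against -0.01 for all 13527 genes tested. Over all genes tested, 27.5% were called higher and 27.9% lower at a limma adjusted p below 0.05, so the count of rises was near the background. Between days 7 and 14, 18 fell and 1 rose (median -0.78), where 27% of all genes fell and 25% rose. From day 14 to day 21 the balance turned, with 16 rises and 3 falls (median 0.49), where 20.2% of all genes rose and 14.3% fell. At day 21 against day 0, 7 were higher and 14 lower (median -0.505), beside 29.8% and 29.5% of all genes. The 4 comparisons share libraries and are not independent of each other. In all, 29 of the 30 tested genes were called in at least 1 comparison, and 24 of them with a change of at least 2-fold. The shares of all genes called in at least 1 comparison are not given here, so these counts cannot be set against a background.

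**Figure D1:**
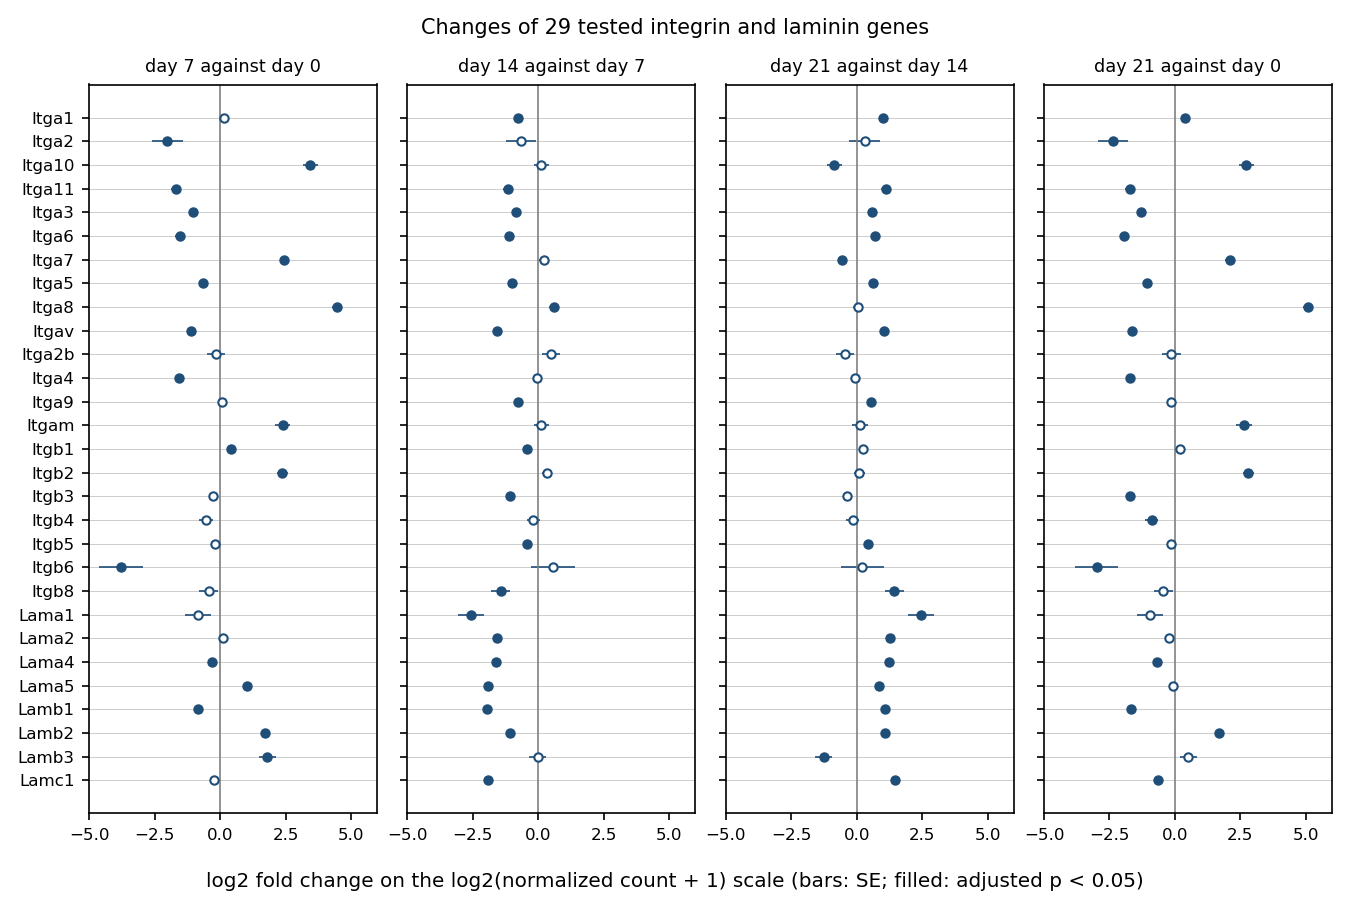
Each point is the change of 1 of 29 tested integrin and laminin genes in 1 comparison, on the log2(normalized count + 1) scale, with its standard error as a bar. Filled points have a limma adjusted p below 0.05. Points lie on both sides of 0 at day 7 against day 0, 18 filled points lie to the left at day 14 against day 7, and 16 lie to the right at day 21 against day 14.

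The laminin beta chains Lamb1 and Lamb2, which occupy the same position in the trimer, moved in opposite directions in the first week. Lamb1, a chain of the laminins of early and many adult tissues, fell 1.77-fold by day 7, whereas Lamb2, the beta chain of muscle, kidney filter and synaptic basement membranes, rose 3.28-fold. The stretch of 250 bases upstream of each gene's start is shown for this pair because their RNAs moved in opposite directions over the first 7 days. Both come from RefSeq (GRCm38.p6, which is not the mm9 build of the deposited files), at chr12:31265043-31265292 and chr9:108479612-108479861, each on the plus strand and read toward the gene. Capitals mark matches to the GC box GGGCGG on either strand.
Lamb1: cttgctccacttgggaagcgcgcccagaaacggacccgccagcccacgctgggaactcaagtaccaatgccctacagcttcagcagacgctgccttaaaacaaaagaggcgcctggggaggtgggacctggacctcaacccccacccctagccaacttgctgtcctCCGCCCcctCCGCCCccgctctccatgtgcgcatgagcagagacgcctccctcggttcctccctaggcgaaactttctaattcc
Lamb2: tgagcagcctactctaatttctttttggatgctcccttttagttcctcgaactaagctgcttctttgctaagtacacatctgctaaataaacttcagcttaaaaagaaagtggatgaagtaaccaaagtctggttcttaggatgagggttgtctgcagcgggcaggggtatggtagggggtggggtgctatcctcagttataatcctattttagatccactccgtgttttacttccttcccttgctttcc
The Lamb1 stretch held 2 GC boxes and was 62.0% G and C, whereas the Lamb2 stretch held none of the 4 motifs searched and was 43.6% G and C. A promoter was found for 23 of the 37 genes. Of these, 8 held a GC box (Itga3, Itga4, Itga5, Itgam, Itgb1, Itgb5, Lama5 and Lamb1), next to 32.7% of all 32851 promoters of the same length. The TATA box TATAAA was found in 0 of the 23 and 12.4% of all. The AP-1 site TGANTCA was found in 1 (Itgax) and 6.75% of all. The glucocorticoid receptor half-site AGAACA was found in 5 (Itga2, Itgax, Itgb1, Itgb7 and Lama2) and 16.1% of all. Both strands were searched, none of these motifs contains another, and a match describes letters, not a bound site. A gene counted if any of its listed promoters held the motif, whereas the shares of all are taken over single promoters.

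Lamb1 measured 15991 and 16004 on day 0, then 8435 and 9631 (day 7), 2534 and 2127 (day 14) and 4419.7 and 5544 (day 21) normalized counts. Its libraries fell without overlap to day 14 and came back part of the way at day 21. The fall from day 7 to day 14 was 3.88-fold (log2 change -1.96, SE 0.126, limma adjusted p = 4.21e-06), and the later rise was 2.13-fold (log2 change 1.09, SE 0.126, limma adjusted p = 0.000211). Day 21 stayed 3.23-fold below day 0 (log2 change -1.69, SE 0.126, limma adjusted p = 2.05e-07), and the early fall had log2 change -0.83, SE 0.126, limma adjusted p = 0.000133. Lamb2 measured 5233 and 4997 on day 0, then 15699 and 17936 (day 7), 8182 and 7471 (day 14) and 13809 and 19943 (day 21). Both day 0 libraries were below all 6 later ones, and day 14 formed a dip between higher values at days 7 and 21. The early rise had log2 change 1.71, SE 0.148, limma adjusted p = 1.06e-06. It then fell 2.15-fold (log2 change -1.10, limma adjusted p = 0.000125) and rose 2.12-fold (log2 change 1.09, limma adjusted p = 0.000496), which left day 21 at 3.24-fold above day 0 (log2 change 1.70, SE 0.148, limma adjusted p = 8.77e-07). Once a trend with transcript length was removed, this fall was smaller, at -0.59 (limma adjusted p = 0.00117), and so was the rise, at 0.78 (limma adjusted p = 0.000663). Both chains thus fell at day 14 and rose at day 21, and in the first week they moved in opposite directions.

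Per kilobase of the longest annotated transcript, which allows levels of different genes to be compared, Lamb2 made up 25.1 and 24.3% of the 3 beta chains at day 0. It then made up 65.6% in both day 7 libraries, 76.6 and 78.0% in those of day 14, and 76.2 and 78.7% in those of day 21. Lamb1 gave nearly all of the rest, 75.2% ± 0.63 (SD, n = 2) at day 0 and 22.5% ± 1.7 at day 21. The log2 ratio of normalized counts of Lamb2 to Lamb1 went from -1.61 and -1.68 at day 0 to 0.90 in both day 7 libraries, 1.69 and 1.81 at day 14 and 1.64 and 1.85 at day 21. This pair was singled out after its values were seen, so its ratio is given as a description only. With mean or merged transcript lengths in place of the longest, the Lamb2 share was 41.0 or 34.2% at day 0 and 87.9 or 84.5% at day 21, and it rose with each of these length measures. Lamb3, a beta chain of the laminin of surface epithelia, was far scarcer, at most 0.363% of beta chains on average. It measured 11.1 and 6.54 on day 0, then 30.1 and 34.8 (day 7), 31.9 and 31.6 (day 14) and 11.7 and 13.6 (day 21) normalized counts, high at days 7 and 14 and low at both ends. It rose 3.48-fold by day 7 (log2 change 1.80, SE 0.329, limma adjusted p = 0.000549) and fell 2.4-fold after day 14 (log2 change -1.26, SE 0.329, limma adjusted p = 0.0122). That fall was not called without day 14 replicate 2 (limma adjusted p = 0.0531).

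The laminin alpha chains fell together between days 7 and 14, with all 4 tested chains called lower by 3.00-fold or more, and all 4 rose again by day 21. Of all genes tested, 27% fell in the first of these steps and 20.2% rose in the second. Lama4, an alpha chain of vessel walls and mesenchymal cells, measured 10170 and 9484 on day 0, then 7653 and 8344 (day 7), 2892 and 2294 (day 14) and 5688 and 6402 (day 21). It was the most abundant alpha chain per kilobase at every time, at 81.5% of alpha chains at day 0 and 75.5 to 75.8% later. The day 14 fall was 3.1-fold (log2 change -1.63, SE 0.119, limma adjusted p = 6.05e-06), and the recovery 2.34-fold (log2 change 1.23, SE 0.119, limma adjusted p = 7.06e-05) left it 1.63-fold below day 0 (limma adjusted p = 0.000264). Its smaller fall at day 7 (log2 change -0.30, SE 0.119, limma adjusted p = 0.0496) was not called by edgeR (adjusted p = 0.0722), with TMM scaling (limma adjusted p = 0.0708) or with any 1 of the 4 libraries left out (limma adjusted p = 0.0893 to 0.265). Among 14 tested endothelial markers, 1 rose and 3 fell by day 7, beside 27.5% and 27.9% of all genes. From day 7 to day 14, 1 of these markers rose and 10 fell, beside 25% and 27% of all genes. Their summed level was 14370 to 16150 normalized counts at day 0, 14360 to 16290 at day 7, 9826 to 11150 at day 14 and 15280 to 18030 at day 21. The endothelial markers Pecam1 and Cdh5 averaged 91.4 and 179.9 at day 0 and 23.1 and 5.49 at day 21, and their part in the Lama4 values was not tested.

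Lama2, the alpha chain of skeletal and cardiac muscle basement membranes and of peripheral nerve, measured 3112 and 3144 on day 0, then 3218 and 3472 (day 7), 1269 and 978 (day 14) and 2256 and 3197 (day 21). Its day 0 and day 7 libraries were close, and both day 14 libraries lay below all others. It fell 3.0-fold (log2 change -1.58, SE 0.154, limma adjusted p = 2.73e-05) and rose 2.41-fold (log2 change 1.27, SE 0.154, limma adjusted p = 0.000246). Once a trend with transcript length was removed, the fall was smaller but still called (log2 change -0.98, limma adjusted p = 0.000132). Lama5, the alpha chain of epithelial and vascular basement membranes in adult tissue, was the 1 alpha chain called higher at day 7. It measured 447 and 446 on day 0, then 856 and 951 (day 7), 254 and 217 (day 14) and 413 and 427 (day 21), so both day 7 libraries were the highest. It rose 2.02-fold by day 7 (log2 change 1.01, SE 0.116, limma adjusted p = 1.23e-05), fell 3.83-fold to day 14 (log2 change -1.94, SE 0.116, limma adjusted p = 2.82e-06) and rose 1.78-fold to day 21 (log2 change 0.83, SE 0.116, limma adjusted p = 0.000549). With the length trend removed, its fall was -0.995 (limma adjusted p = 9.43e-05), and the last rise was not called (log2 change 0.25, limma adjusted p = 0.0906). Day 21 did not pass the test against day 0 (log2 change -0.09, SE 0.116, limma adjusted p = 0.533), but with that trend removed it was called higher (0.37, limma adjusted p = 0.00829). Lama1, an alpha chain mainly of the embryo, stood at 26.3 and 26.1 on day 0, then 9.11 and 21.4 (day 7), 0.911 and 2.34 (day 14) and 9.61 and 17.5 (day 21). At 34 reads over both day 7 libraries and 3 over both day 14 libraries, it was 9.97-fold lower at day 14 (95% counting interval 3.14 to 50.8, limma adjusted p = 0.00114). The fitted log2 change was -2.58, and -1.86 with the length trend removed (limma adjusted p = 0.0117). It was then 8.95-fold higher at day 21 than at day 14 (2.75 to 46.1, limma adjusted p = 0.00362). These intervals cover counting error only.

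Lamc1, the gamma chain shared by most laminins, also dipped at day 14. It measured 19975 and 21621 on day 0, then 17402 and 18344 (day 7), 5567 and 3984 (day 14) and 12636 and 13682 (day 21), and both day 14 libraries were below all others. The fall was 3.79-fold (log2 change -1.92, SE 0.139, limma adjusted p = 6.01e-06) and the recovery 2.79-fold (log2 change 1.48, SE 0.139, limma adjusted p = 5.61e-05), with day 21 1.58-fold below day 0 (limma adjusted p = 0.0013). Summed over the chains, mean levels per kilobase went from 1752 to 567 for alpha, 4556 to 1800 for beta and 2408 to 694 for gamma chains between days 7 and 14. Beside the epithelial chain Lamb3, the epithelial markers Epcam and Cdh1 had at most 1 and 2 reads in any library. The mesothelial marker Msln averaged 19.4 normalized counts at day 0, 402 at day 7, 1179 at day 14 and 460 at day 21. Upk3b, also mesothelial, averaged 832, 385, 423.5 and 196. The list of 15 epithelial and mesothelial genes summed to 1514 to 1636 normalized counts at day 0 and 1313 to 1355 at day 7. It summed to 2411 to 2425 at day 14 and 780.1 to 1566 at day 21. Of the 9 of these genes tested, 4 were higher and 3 lower at day 7, beside 27.5% and 27.9% of all genes. Their part in these values was not tested.

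**Figure D2:**
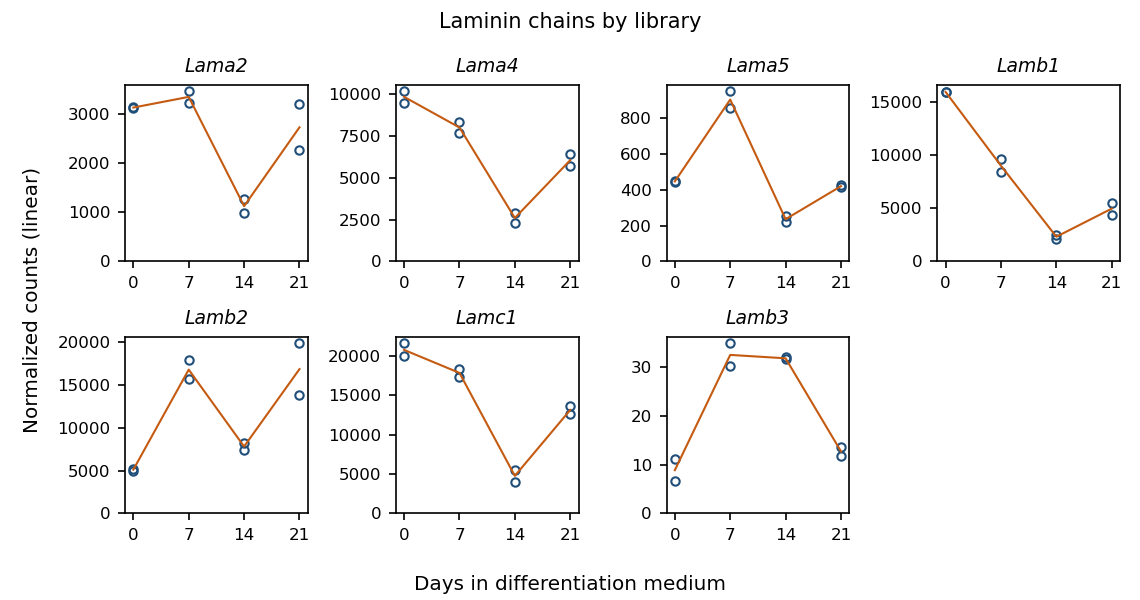
Points are the 2 libraries at each time and lines join their means, in normalized counts on a linear axis from 0, against days in the medium. Lama2, Lama4, Lama5, Lamb1 and Lamc1 are lowest at day 14, and Lamb2 is lowest at day 0.

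**Figure D3:**
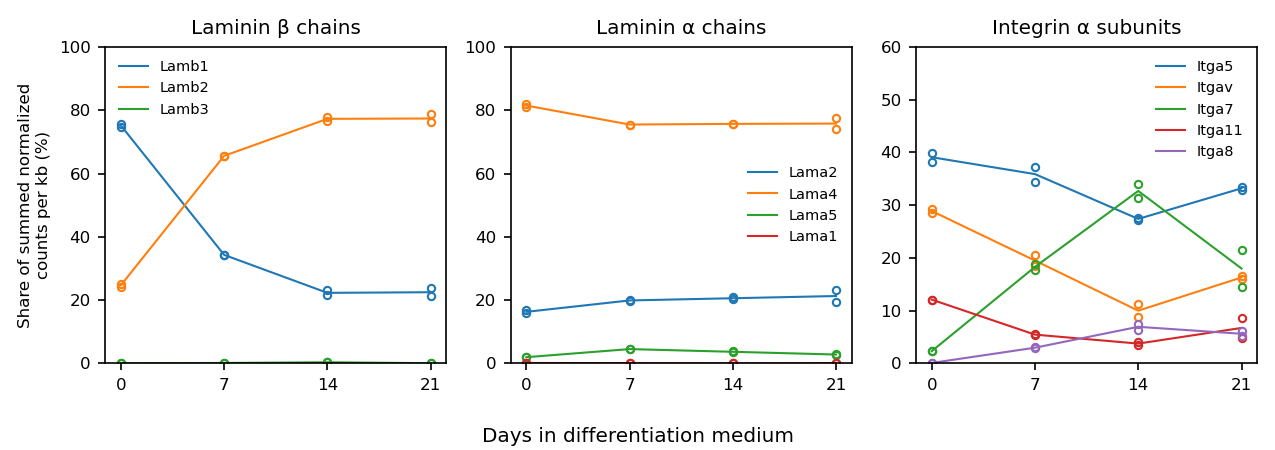
Shares per kilobase of the laminin beta chains, laminin alpha chains and integrin alpha subunits by library (points) and their means (lines), in percent of the summed normalized counts per kilobase of each class, against days in the medium. The Lamb1 and Lamb2 lines cross between days 0 and 7, the alpha chain shares move little, and Itga7 rises from 2.32 to 32.7% of integrin alpha subunits by day 14. The axis of the integrin panel ends at 60%.

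Among the laminin-binding integrins, Itga7 rose while Itga3 and Itga6 fell. Itga7, the laminin receptor of striated and smooth muscle, measured 218 and 226 on day 0, then 1153 and 1282 (day 7), 1369 and 1426 (day 14) and 1211 and 754 (day 21). Both day 0 libraries lay below all later ones, and both day 14 libraries were above all others. The rise by day 7 was 5.45-fold (log2 change 2.45, SE 0.17, limma adjusted p = 1.53e-07), and day 21 was 4.29-fold above day 0 (log2 change 2.10, SE 0.17, limma adjusted p = 4.33e-07). Its fall from day 14 to day 21 (log2 change -0.55, SE 0.17, limma adjusted p = 0.0264) rested on 1 library, since without day 21 replicate 2 it was -0.21 (limma adjusted p = 0.23), and it was also not called without day 14 replicate 2 (0.0878). Beside it, the smooth muscle marker Myh11 averaged 35.7 normalized counts at day 0, 65.9 at day 7, 114 at day 14 and 92.7 at day 21. Tnnt2, a troponin of heart muscle, averaged 1170, 11410, 25600 and 8215, with Myh6 at 0 reads in every library. Of 15 heart muscle markers 4 were tested, 3 of them higher at day 7, and the list summed to 1148 to 1218 normalized counts at day 0 and 22480 to 28830 at day 14, nearly all of it Tnnt2. Of 13 tested smooth muscle and pericyte markers, 4 rose and 5 fell by day 7, where 27.5% of all genes rose and 27.9% fell. The list of 14 smooth muscle and pericyte markers summed to 70420 to 73800 at day 0 and 24920 to 25560 at day 7. The part of these cell types in the Itga7 values was not tested.

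Itga6, which pairs with Itgb1 or, in epithelia, with Itgb4, measured 361 and 337 on day 0, then 122 and 117 (day 7), 57.4 and 52.6 (day 14) and 79.0 and 102 (day 21). It fell 2.91-fold by day 7 (log2 change -1.54, SE 0.168, limma adjusted p = 8.18e-06) and 2.15-fold further by day 14 (log2 change -1.11, SE 0.168, limma adjusted p = 0.000249), and day 21 was 3.85-fold below day 0 (limma adjusted p = 7.81e-07). The partial return at day 21 (1.62-fold, limma adjusted p = 0.00808) was not called without day 21 replicate 2 (limma adjusted p = 0.0741). Itga3, a laminin receptor of epithelial and many cultured cells, measured 419 and 473 on day 0, then 207 and 232 (day 7), 119 and 120.4 (day 14) and 182 and 176 (day 21). It fell 2.03-fold by day 7 (log2 change -1.02, SE 0.132, limma adjusted p = 3.53e-05), 1.82-fold by day 14 (limma adjusted p = 0.000265) and rose 1.49-fold by day 21 (limma adjusted p = 0.00673), a rise not called with the length trend removed (0.0704). The log2 ratio of Itga7 to Itga6 normalized counts moved from -0.72 and -0.57 at day 0 to 3.23 and 3.45 (day 7), 4.55 and 4.74 (day 14) and 3.92 and 2.87 (day 21). As with the laminin pair, this ratio was chosen after its values were seen and is given as a description only.

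The integrins that read the RGD motif of fibronectin and vitronectin were also split, with Itga8 up and Itga5 and Itgav down. Itga8, which pairs with Itgb1 and binds fibronectin and nephronectin, had the largest rise of the 30 tested genes in both comparisons with day 0. It measured 11.1 and 13.1 on day 0, then 284 and 288 (day 7), 474 and 387 (day 14) and 499 and 386 (day 21), with 24 reads over both day 0 libraries. By day 7 it was 22.0-fold higher (log2 change 4.46, SE 0.169, limma adjusted p = 8.86e-10) and by day 21 33.6-fold higher (log2 change 5.07, SE 0.169, limma adjusted p = 2e-10). The further step from day 7 to day 14 (log2 change 0.58, SE 0.169, limma adjusted p = 0.0127) was the only rise among these 30 genes in that comparison and was not called without either day 7 library (limma adjusted p = 0.0721 and 0.0653) or without day 14 replicate 1 (0.0766). Itgav, the alpha subunit that joins several beta subunits, fell from 4859.9 and 4857 at day 0 to 2346 and 2191 at day 7 and 870.1 and 644 at day 14, and was at 1583 and 1514 at day 21. No 2 neighbouring times overlapped. Its falls were 2.14-fold (log2 change -1.10, SE 0.124, limma adjusted p = 1.1e-05) and 3.03-fold (log2 change -1.60, SE 0.124, limma adjusted p = 9.81e-06), and its rise from day 14 was 2.07-fold (log2 change 1.05, SE 0.124, limma adjusted p = 0.000232).

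Itga5, the alpha subunit of the main fibronectin receptor, measured 3965 and 4261 on day 0, then 2456 and 2777 (day 7), 1306 and 1265 (day 14) and 2069 and 1887 (day 21). It was the most abundant alpha subunit per kilobase at days 0, 7 and 21, with 39.1% ± 1.2, 35.9% ± 2.0 and 33.2% ± 0.32 of alpha subunits (SD, n = 2). At day 14 its 27.4% ± 0.26 was below the 32.7% ± 2.0 of Itga7, an order that turned with mean transcript lengths (24.8% for Itga5 and 23.9% for Itga7) and with merged ones (34.2 and 22.7%). Itga5 fell 1.57-fold by day 7 (log2 change -0.65, SE 0.0977, limma adjusted p = 0.000114) and 2.03-fold by day 14 (log2 change -1.02, SE 0.0977, limma adjusted p = 2.55e-05), then rose 1.54-fold (limma adjusted p = 0.00107). The gene of its ligand fibronectin, Fn1, averaged 321900 normalized counts at day 0, 119200 at day 7, 26170 at day 14 and 86290 at day 21. Itga2b, the alpha subunit of the platelet fibrinogen receptor, ranged from 16.0 to 37.4 normalized counts and was called in none of the 4 comparisons. The platelet marker Gp9 had at most 1 read in any library.

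Of the 4 collagen-binding alpha subunits, Itga10 rose and Itga2 and Itga11 fell in the first week, while Itga1 was not called until day 14. Itga11, the collagen receptor typical of fibroblasts, measured 1412 and 1455 on day 0, then 450.0 and 445 (day 7), 217 and 181 (day 14) and 338 and 555 (day 21). It fell 3.2-fold by day 7 (log2 change -1.68, SE 0.184, limma adjusted p = 8.7e-06) and 2.25-fold more by day 14 (limma adjusted p = 0.000317), rose 2.18-fold by day 21 (limma adjusted p = 0.00131), and remained 3.31-fold below day 0 (limma adjusted p = 5.34e-06). The 2 day 21 libraries were far apart, though both stood above those of day 14. Itga10, the collagen receptor of cartilage cells, measured 7.17 and 3.92 on day 0, then 69.2 and 66.9 (day 7), 79.3 and 69.0 (day 14) and 45.9 and 36.0 (day 21), with 12 reads over both day 0 libraries. It rose 10.9-fold by day 7 (log2 change 3.44, SE 0.287, limma adjusted p = 7.71e-07), and by 2.81 on the log2 scale with a pseudocount of 5. Its fall after day 14 (log2 change -0.85, SE 0.287, limma adjusted p = 0.0384) was not called when any 1 of the day 7, day 14 or day 21 libraries was left out (limma adjusted p = 0.0504 to 0.2), nor without the filter (0.0744).

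Itga1, a collagen receptor of mesenchymal cells and vessels, measured 516 and 537 on day 0, then 606 and 564 (day 7), 384 and 295 (day 14) and 643 and 725 (day 21). It fell 1.74-fold at day 14 (log2 change -0.80, SE 0.132, limma adjusted p = 0.000433) and rose 2.03-fold at day 21 (log2 change 1.02, SE 0.132, limma adjusted p = 0.000368). With the length trend removed, its day 14 fall was -0.21 and was not called (limma adjusted p = 0.0728). Day 21 against day 0 gave 1.3-fold (limma adjusted p = 0.0276), lost without day 0 replicate 1 (0.13), day 0 replicate 2 (0.0832) or day 21 replicate 2 (0.151). Itga2, a collagen and laminin receptor of platelets and epithelia, was scarce at 24.7 and 18.3 on day 0, then 4.55 and 4.46 (day 7), 4.56 and 1.17 (day 14) and 2.14 and 4.86 (day 21). It fell 4.04-fold by day 7 (log2 change -2.02, SE 0.58, limma adjusted p = 0.0106), a call lost without day 0 replicate 1 (limma adjusted p = 0.0808). The pair Itga4 and Itga9, which bind VCAM1, fibronectin or tenascin, parted early. Itga4 measured 944 and 872 on day 0, then 341 and 273 (day 7), 285 and 297 (day 14) and 268 and 288 (day 21), falling 2.97-fold by day 7 (log2 change -1.57, SE 0.128, limma adjusted p = 6.23e-07) with no later call between neighbouring times. With the length trend removed, it was called higher at day 14 than at day 7 (log2 change 0.42, limma adjusted p = 0.02) and lower at day 21 than at day 14 (-0.40, 0.0371). Itga9 ranged from 352 to 658 normalized counts, fell 1.7-fold at day 14 (limma adjusted p = 0.000381) and rose 1.46-fold at day 21 (limma adjusted p = 0.00622). That rise was not called without day 21 replicate 2 (limma adjusted p = 0.0605) or with the length trend removed (0.0725).

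Of the 7 tested beta subunits, 2 rose (Itgb1 and Itgb2) and 1 fell (Itgb6) by day 7, and 4 fell from day 7 to day 14 (Itgb1, Itgb3, Itgb5 and Itgb8). Of all genes tested, 27.5% rose and 27.9% fell by day 7, and 27% fell from day 7 to day 14. The beta subunit rises by day 7 were thus near the background. Itgb1, the shared partner of most of the alpha subunits here, measured 31313 and 29264 on day 0, then 41591 and 39288 (day 7), 32818 and 26699 (day 14) and 36383 and 33779 (day 21). It rose 1.34-fold by day 7 (log2 change 0.42, SE 0.126, limma adjusted p = 0.0139) and fell 1.37-fold by day 14 (log2 change -0.45, SE 0.126, limma adjusted p = 0.0104), with no call at day 21 against day 0. Leaving out day 0 replicate 2, day 7 replicate 1 or day 7 replicate 2 ended the first call (limma adjusted p = 0.102, 0.11 and 0.0553). The second ended without day 7 replicate 1 (0.0905) or day 14 replicate 2 (0.0706). Per kilobase, Itgb1 and Itgb5 made up nearly all beta subunit RNA, with Itgb1 at 52.6% ± 1.1 (SD, n = 2) at day 0, 62.6% ± 1.5 at day 7, 62.0% ± 2.8 at day 14 and 58.9% ± 4.6 at day 21. Summed beta subunits per kilobase averaged 15080, 16940, 12550 and 15620 over the 4 times, whereas summed alpha subunits averaged 2384, 1651, 1064 and 1350.

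Itgb5, a vitronectin receptor subunit that pairs with Itgav, ranged from 14934 to 23202 normalized counts, with a 1.34-fold fall at day 14 (limma adjusted p = 0.00861) and a 1.35-fold rise at day 21 (limma adjusted p = 0.0126). Those calls were lost without day 7 replicate 2 (limma adjusted p = 0.0771) and without day 21 replicate 2 (0.0905). Itgb3, the other common partner of Itgav, measured 275 and 297 on day 0, then 247 and 230.0 (day 7), 114 and 109 (day 14) and 86.5 and 84.6 (day 21), the libraries falling to day 21 without a recovery. It fell 2.13-fold at day 14 (log2 change -1.09, SE 0.138, limma adjusted p = 8.82e-05), and day 21 was 3.31-fold below day 0 (log2 change -1.73, SE 0.138, limma adjusted p = 3.88e-07). The step from day 14 to day 21 missed the threshold (limma adjusted p = 0.0526) and was called lower with the length trend removed (limma adjusted p = 0.00534), with TMM scaling (0.044) and with the filter at 50 normalized counts (0.0451). Itgb8, an Itgav partner that activates latent TGF-beta, measured 162 and 174 on day 0, then 141 and 109 (day 7), 78.4 and 25.7 (day 14) and 128 and 119.6 (day 21). Its fall at day 14 and rise at day 21 were each 2.71-fold (limma adjusted p = 0.0057 and limma adjusted p = 0.0103), and the rise was not called without day 21 replicate 2 (limma adjusted p = 0.0579). The 2 day 14 libraries lay far apart, at 86 and 22 reads. The log2 fall was -2.23 without day 14 replicate 1 and -0.65 without day 14 replicate 2, and the rise 2.22 and 0.65, each still called (limma adjusted p = 3.5e-06 to 0.0361).

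Itgb6, the epithelial Itgav partner, measured 11.1 and 14.4 at day 0, or 25 reads over both libraries, and 0 reads at day 7. Later libraries held 0 and 1.17 (day 14) and 0 and 1.95 (day 21). It was therefore at least 9.15-fold lower at day 7, against a floor of 3 reads over the group (limma adjusted p = 0.00214). With 2 reads over both day 21 libraries it was 12.2-fold lower there than at day 0 (95% counting interval 3.03 to 106, limma adjusted p = 0.00807). That last call was lost without day 0 replicate 2 (limma adjusted p = 0.0654) or day 21 replicate 1 (0.0542). Itgb4, the Itga6 partner of hemidesmosomes, ranged from 21.4 to 49.4 normalized counts. It was called lower at day 21 than at day 0 by limma (1.85-fold, limma adjusted p = 0.0106) but not by DESeq2 (adjusted p = 0.0652), with the length trend removed (limma adjusted p = 0.0526), nor without day 0 replicate 1 or day 21 replicate 1 (limma adjusted p = 0.0779 and 0.0683).

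**Figure D4:**
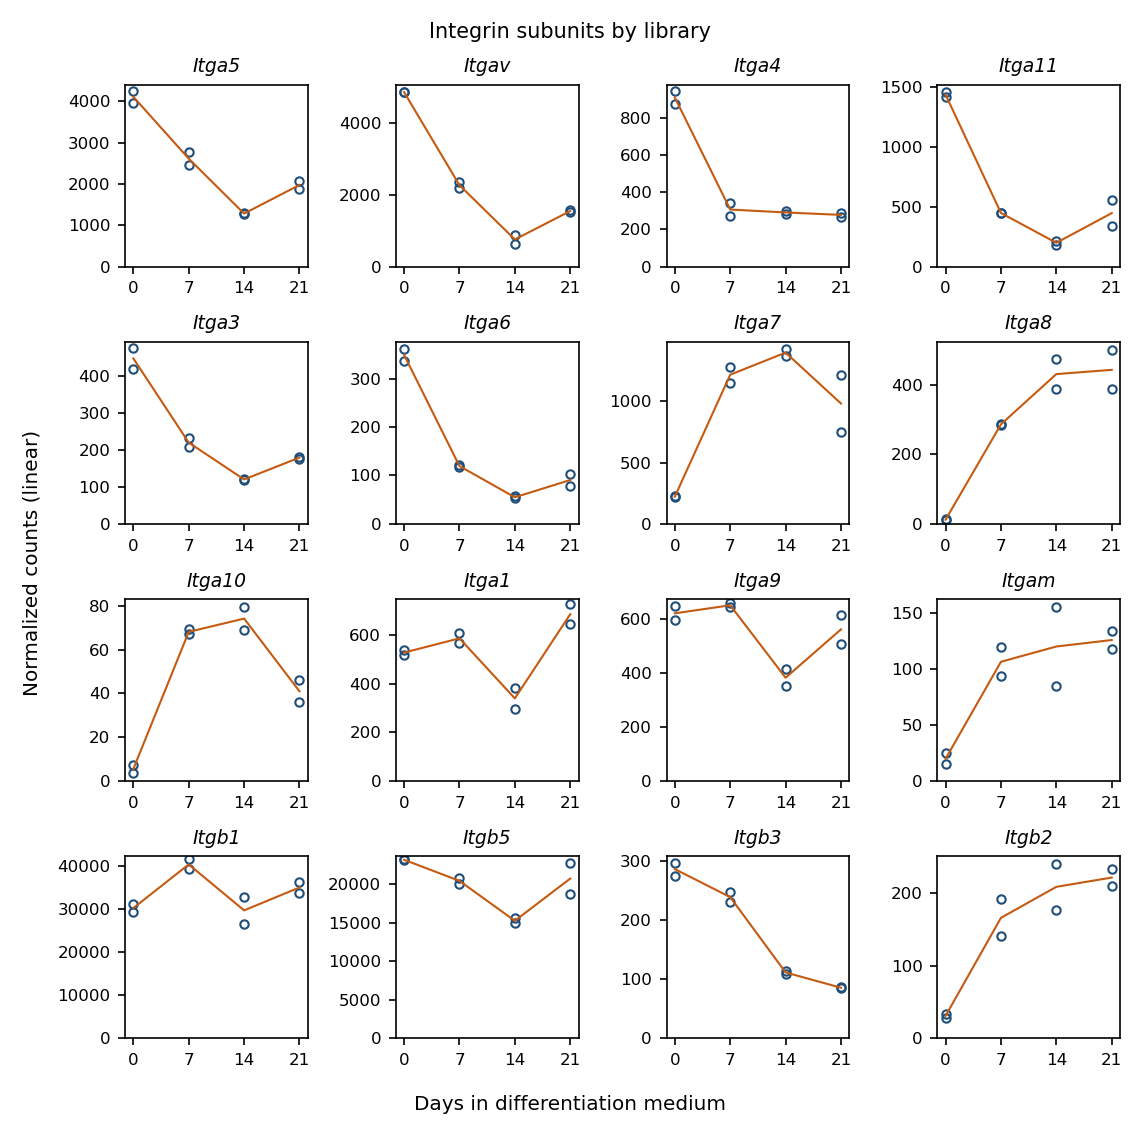
Points are the 2 libraries at each time and lines join their means, for 16 integrin subunits in normalized counts on linear axes from 0, against days in the medium. Itga7, Itga8, Itga10, Itgam and Itgb2 start lowest at day 0, while Itga3, Itga4, Itga5, Itga6, Itga11 and Itgav start highest.

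The leukocyte integrin genes Itgam and Itgb2 rose together with macrophage markers by day 7. Itgam, the alpha subunit of the complement receptor of macrophages and neutrophils, measured 15.1 and 24.8 on day 0, then 119 and 93.6 (day 7), 84.7 and 155 (day 14) and 117 and 134 (day 21). Its partner Itgb2, shared by all leukocyte integrins of this class, measured 27.9 and 34.0 on day 0, then 191 and 140.0 (day 7), 177 and 239.6 (day 14) and 209 and 232 (day 21). In both genes the day 0 libraries lay below all 6 later ones. By day 7 Itgam was 5.23-fold higher (log2 change 2.39, SE 0.294, limma adjusted p = 2.28e-05) and Itgb2 5.18-fold higher (log2 change 2.37, SE 0.203, limma adjusted p = 9.75e-07), with no call between later neighbouring times. Over the same step the macrophage marker Emr1 (now named Adgre1) and the leukocyte marker Ptprc rose from means of 13.6 and 2.50 normalized counts to 124 and 32.0, and Csf1r from 170.3 to 342. From day 7 to day 14, 12 of the 21 listed macrophage genes rose and 0 fell, beside 25% and 27% of all genes. Itgam and Itgb2 were not called over that step. The part of macrophages in the Itgam and Itgb2 values was not tested. Itgax, a dendritic cell and macrophage subunit, was at 0 reads at day 0 and 10 over both libraries at day 7, at least 3.04-fold higher against the floor of 3 reads. It stayed under the filter and was not tested by limma. Itgal and Itgae, the lymphocyte subunits, and Itgad and Itgb7 had at most 7 reads in any library.

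The genes differed in the time at which they were highest or lowest. Both day 14 libraries were below all 6 others in 15 of the 30 tested genes, 9 integrins and 6 laminins (Lama1, Lama2, Lama4, Lama5, Lamb1 and Lamc1), where 23.1% of all genes tested show this. Only Itga7 had both day 14 libraries above the others, a pattern of 21.4% of all genes. Both day 0 libraries were above all later ones in 17 genes (30.4% of all genes) and below them in 7 (29.4% of all genes), namely Itga7, Itga8, Itga10, Itgam, Itgb2, Lamb2 and Lamb3. These counts carry no test of their own.

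Transcript length moved with the changes at day 14. Over all genes tested that had a length, the change from day 7 to day 14 was -0.40 log2 per doubling of transcript length, and that from day 14 to day 21 was 0.26. The same slope was -0.02 from day 0 to day 7. Integrin and laminin transcripts are long, with 28 of the 30 tested above the median of 3.36 kb, and medians of 6.05 kb for laminins and 4.97 kb for integrins. With a linear trend on length and GC content removed from each library, the median change from day 7 to day 14 was -0.37 in place of -0.78, with 17 genes lower and 3 higher. For the laminins alone it was -0.995 in place of -1.63, and 7 of 9 were still called lower. From day 14 to day 21 the median became 0.24, with 13 rises and 5 falls. The shares of all genes called with the trend removed are not given here, so these counts cannot be set against a background. The source of the slope with length was not tested.

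**Figure D5:**
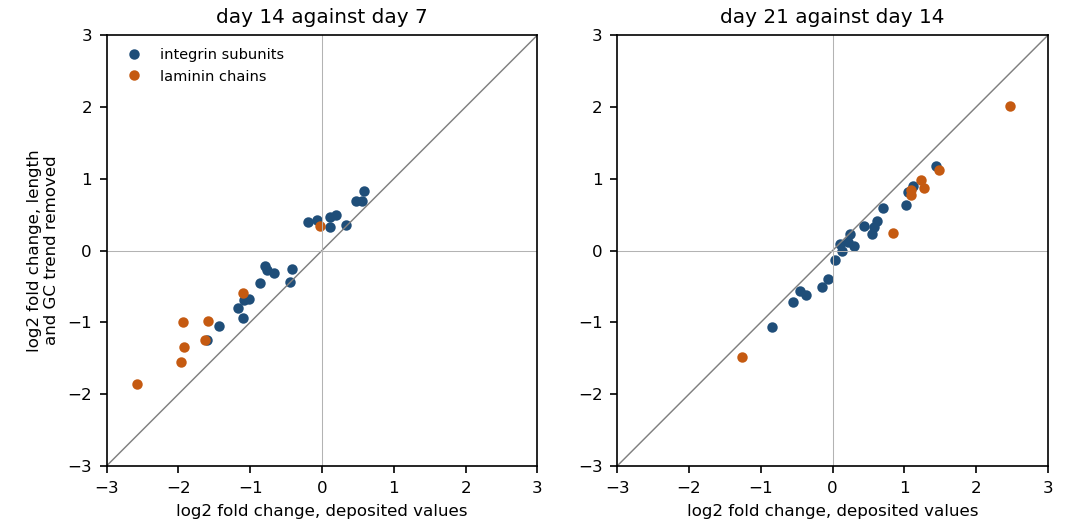
Each point is 1 of 29 tested integrin and laminin genes, with its log2 change in the deposited values on the x axis and its change after removal of the length and GC trend on the y axis, for days 14 against 7 and 21 against 14. Most points lie above the diagonal on the left and below it on the right, changes that became less negative or less positive, and the laminins with the largest falls remained below 0.

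Other genes of the same adhesion system were followed in 5 lists. For comparison, 27.5% of all genes tested rose and 27.9% fell by day 7. From day 7 to day 14, 27% fell, and from day 14 to day 21, 20.2% rose. At day 21 against day 0, 29.8% were higher and 29.5% lower. Of 20 tested basement membrane components other than laminins, 11 rose and 4 fell by day 7, 12 fell from day 7 to day 14, and 13 rose from day 14 to day 21 by limma. That last count was 7 with the length trend removed or without day 14 replicate 2, and 6 without day 21 replicate 2. Smoc2, a calcium-binding matrix protein, was 9.48-fold higher at day 7 (limma adjusted p = 4.08e-10) and Nid2, a linker of laminin to collagen IV, 4.35-fold higher (2.65e-08). Npnt, which encodes nephronectin, the ligand of the Itga8 integrin, fell 7.34-fold, from a mean of 717 to 97.4 normalized counts (limma adjusted p = 7.59e-08), while Itga8 rose. The collagen IV genes Col4a1 and Col4a2 were close to their day 0 means at day 21, at 65869 against 66658 and 56348 against 52612, with neither called. Of 23 tested integrin ligands other than laminins and collagens, 6 rose and 11 fell by day 7, and 8 were higher and 12 lower at day 21 than at day 0. The ligand rises by day 7 were near the share of all genes. Ltbp1, which holds latent TGF-beta in the matrix, fell 5.43-fold by day 7 (limma adjusted p = 5.74e-09), and Postn was 4.61-fold lower at day 21 (3.43e-08).

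Inside the cell, 39 talin, kindlin and adhesion adaptor genes were tested. Of all genes tested, 27.5% rose and 27.9% fell by day 7, and 25% rose and 27% fell from day 7 to day 14. Among the 39 adaptors, 11 rose by day 7, near that share, and 19 fell. From day 7 to day 14, 5 of them rose and 24 fell. The rises by day 7 numbered 7 when any 1 of the day 0 and day 7 libraries was left out, and the later rises 2 without day 7 replicate 1, 1 without day 7 replicate 2 and 3 without day 14 replicate 2. The actin crosslinker Actn1 fell 3.5-fold by day 7 (limma adjusted p = 6.53e-08), while Vcl, which encodes vinculin, was near its day 0 mean at 6966 against 6862 normalized counts. Kank4, a talin-binding protein, went from 1 read over both day 0 libraries to 215 at day 7, a ratio of 196 (95% counting interval 34.8 to 7770, limma adjusted p = 1.86e-08). Of 20 tested receptors for laminin and collagen other than integrins, 11 rose and 6 fell by day 7, among them Sspn, a partner of dystroglycan, which rose 2.88-fold (limma adjusted p = 5.68e-08). Dag1, dystroglycan itself, averaged 9628 at day 0 and 8361 at day 7 and was not called (limma adjusted p = 0.204). Of 13 membrane proteins that associate with integrins, 5 rose and 2 fell by day 7. Without day 0 replicate 1 these were 3 and 1, and 1 fell without day 7 replicate 1. The number lower was 4 without either day 21 library, with the length trend removed, or with only the 2 times compared. Plaur, the urokinase receptor, fell 5.24-fold (limma adjusted p = 6.13e-07), and the tetraspanin Cd9 rose 1.86-fold (0.000152).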

How the data were processed

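The table deposited by the authors holds 1 signal value for each of 24015 gene symbols and 8 libraries, namely reads scaled by a size factor of the library, and every column was used. Per the submitters' processing notes, TopHat2 2.0.11, HTSeq 0.6.1, DESeq (no version) and the mouse genome mm9 were named. Library strand, gene annotation and medium components were not given in the sources used here, so a gene that shares its place with one on the other strand has an uncertain value. RNA was prepared with a column kit and standard Illumina libraries, per the labels' protocols.

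Whole reads were recovered by dividing each deposited count by the smallest positive value of its library, which gave whole numbers (tolerance 0.01 reads) for 100% of entries. These normalized values were put on the log2(normalized count + 1) scale, on which fold changes are given and the change of low genes is understated. The 13527 genes that reached 10 normalized counts in 2 or more libraries were fitted with limma 3.58.1 (trend, 4 group means over all 8 libraries, 4 residual and 8.16 prior degrees of freedom). The Benjamini-Hochberg adjustment ran over all tested genes, with calls at an adjusted p below 0.05. The alternatives were other pseudocounts, filters and scalings, edgeR 4.0.16, DESeq2 1.42.0, a length and GC trend removed, a replicate block and each library left out in turn. The scripts were tested on simulated data.

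The genes were chosen by a symbol rule, and the genes and the lists of other genes were chosen with earlier results of these data known. Values in every library are given for genes called with a change of at least 2-fold in at least 1 comparison and for Itgb1, Itgav, Itga5, Lamb1 and Lamc1. Other integrin and laminin genes are given by range and counts, and the values of some genes that enter the counts are not reported here. From each of 5 lists, the 4 called genes that changed most and the 2 uncalled genes of highest mean could be named, for days 7 and 21 against day 0. Fn1 and the marker genes were added beside results they bear on. Ratios of genes with 1 to 3 reads in a group have exact 95% binomial intervals, and a group at 0 reads takes a floor of 3 reads over the group. Transcript lengths and GC content came from GENCODE M21 (GRCm38) for 23639 symbols (98.4%), 930 of them through a synonym, and promoter sequences from RefSeq (GRCm38.p6). R 4.3.3 and Python 3.11.15 were used.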

Additional observations from a re-analysis of the deposited data

How the results depend on the processing

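For the 30 tested genes and 4 comparisons, 120 changes in all, 110 to 120 kept their side of the threshold in each of 18 alternatives. With the filter at 50 normalized counts, 95 of 96 did. A change to which DESeq2 gave no adjusted p counts as kept. The direction of uncalled changes was not part of this count. Some of them switched sign with the length and GC trend removed, such as Itgb4 at day 14 against day 7 (log2 change -0.19 to 0.40). The genes called higher at day 14 against day 7 numbered 1, and 3 with the length and GC trend removed, 2 with that and the replicate block, and 0 to 1 over the 8 libraries left out in turn. The genes called lower at day 21 against day 14 numbered 3, and 1 without a filter, 5 with the length and GC trend removed, and 0 to 3 with a library left out, the 0 without day 14 replicate 2 and a 1 without day 21 replicate 2. The other 6 counts stayed within 1.5 times, also with the length and GC trend removed. After that removal, Itga4 at day 14 against day 7 (log2 change 0.42) and Lama5 at day 21 against day 0 (0.3693) were called higher. Both had been uncalled with a change below 0 in the main fit. The calls held with or without the replicate block (limma adjusted p = 0.0299 and 0.0112 with it), and the cause was not tested. Replicate numbers did not pair the libraries beyond sharing a number, since the deviations of same-numbered libraries correlated at -0.0356 to 0.0737 across times. With the number as a replicate block, 119 of 120 changes kept their call, and that of Lama4 at day 7 was lost (limma adjusted p = 0.0671). Other scalings moved the median of all genes by less than 0.1. Few reads stand behind Itga2, Itga10, Itgb6, Lama1 and Lamb3.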
